A study of Mus musculus with 12 samples.

Results

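The genes described here are 10 members of the JAK-STAT pathway of cytokine signalling. They are the transcription factor genes Stat3, Stat5a and Stat5b, the kinase genes Pim1, Pim2 and Pim3, and the inhibitor genes Cish, Socs1, Socs2 and Socs3. They were chosen by name. Every probe set annotated to one of them alone was taken, which gave 16 of the 28898 probe sets with a single gene. RNA was measured on 12 oligonucleotide arrays, 4 for each of 3 murine acute myeloid leukaemia (AML) cell lines. According to its label the Trib1 line expresses Trib1, a pseudokinase that drives degradation of a C/EBP transcription factor. TB13 and TB14 carry Trib1 as well, and in addition Bcl11a, a zinc finger transcriptional repressor, so Trib1 was common to all groups. The cells were untreated, in IMDM medium that held serum at 10% and interleukin-3, a cytokine that itself signals through this pathway, at 5 ng/ml. The labels do not say which promoters drove Trib1 and Bcl11a or whether a line is 1 clone. They also do not say that the 4 arrays of a line were separate cultures, so p-values measure only the spread between these arrays, which may be technical. The spread between independent lines of 1 genotype is not measured with a single Trib1 line.

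When a cytokine binds its receptor, JAK kinases attached to the receptor phosphorylate STAT proteins, which move to the nucleus and bind DNA as dimers. Their targets include the Pim genes, whose kinases promote survival and growth, and Cish and the Socs genes, whose products block the receptor or its kinases and close a feedback loop. In myeloid cells STAT5 relays interleukin-3 and STAT3 relays G-CSF and interleukin-6. The arrays report transcripts and not phosphorylation.

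The study's title names PU.1, a myeloid transcription factor, so start-site sequences were searched both for the palindromic core that STAT dimers bind, TTCNNNGAA, and for the core that PU.1 binds, GAGGAA. The RefSeq promoter table (build GRCm38.p6) held 12 windows for 9 of the 10 genes, each from 250 bases before to 50 after a start, and none for Socs2. On either strand TTCNNNGAA was found in windows of 2 genes, Cish and Socs3, and in 8.3% of all 32851 windows of that length. Cish held 2 matches, and 0.46% of all windows held 2 or more. GAGGAA was found in windows of 5 genes, Stat5a, Pim1, Pim2, Pim3 and Socs1, and in 28.28% of all windows. No STAT match overlapped a PU.1 match. A match is a description of the letters and not a bound site. The sequences that follow run from 200 bases before to 30 after the start. Cish and Socs3 are shown as the members with a STAT core, Pim2 and Pim3 as kinase genes that fell in both Bcl11a lines, and the downstream start of Stat5a as that of the gene that rose most in TB14. Capitals mark TTCNNNGAA in Cish and Socs3, and GAGGAA or its complement TTCCTC in the other 3. They lie at chr9:107296459-107296688 on the plus strand for Cish, chr11:117969337-117969566 on the minus strand for Socs3, chrX:7878106-7878335 on the plus strand for Pim2, chr15:88861994-88862223 on the plus strand for Pim3 and chr11:100860284-100860513 on the plus strand for Stat5a.
Cish: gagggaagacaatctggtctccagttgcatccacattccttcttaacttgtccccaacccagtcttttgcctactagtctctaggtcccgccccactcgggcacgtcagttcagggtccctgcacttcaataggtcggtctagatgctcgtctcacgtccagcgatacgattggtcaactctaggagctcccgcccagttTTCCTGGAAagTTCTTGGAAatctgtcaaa
Socs3: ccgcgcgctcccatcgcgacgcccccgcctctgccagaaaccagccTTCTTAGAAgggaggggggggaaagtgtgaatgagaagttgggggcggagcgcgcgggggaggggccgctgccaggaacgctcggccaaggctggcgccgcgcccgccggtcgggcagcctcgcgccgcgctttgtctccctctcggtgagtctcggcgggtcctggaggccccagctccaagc
Pim2: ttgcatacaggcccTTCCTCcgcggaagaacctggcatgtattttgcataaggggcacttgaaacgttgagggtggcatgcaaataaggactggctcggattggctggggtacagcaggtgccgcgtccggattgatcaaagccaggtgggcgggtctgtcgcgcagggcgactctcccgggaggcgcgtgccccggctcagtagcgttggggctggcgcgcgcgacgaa
Pim3: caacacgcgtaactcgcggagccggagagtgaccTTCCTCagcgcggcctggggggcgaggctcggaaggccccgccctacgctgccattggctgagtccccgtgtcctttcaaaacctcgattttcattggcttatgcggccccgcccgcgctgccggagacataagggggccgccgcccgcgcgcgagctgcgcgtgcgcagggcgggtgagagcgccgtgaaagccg
Stat5a: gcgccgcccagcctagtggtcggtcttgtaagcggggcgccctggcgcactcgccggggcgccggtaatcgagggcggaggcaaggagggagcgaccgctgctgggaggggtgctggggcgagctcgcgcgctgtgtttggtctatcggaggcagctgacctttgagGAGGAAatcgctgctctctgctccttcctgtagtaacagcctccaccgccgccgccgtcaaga
In Cish the cores TTCCTGGAA and TTCTTGGAA began at bases 1 and 12 of the transcript. In Socs3 the core TTCTTAGAA began 154 bases before the start. The PU.1 core began 186 bases before the start in Pim2, 166 in Pim3 and 33 in Stat5a.

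In their scale the TB13 arrays differed from the Trib1 and TB14 arrays. Their upper quartile of intensity was 71.8 to 72.5, against 102 to 106 for Trib1 and 106 to 109 for TB14. The 18 hybridization controls, transcripts added to the labelled RNA and independent of the cells, were shifted by -0.93 against Trib1 (median log2 change) on the TB13 arrays and by 0.0010 on the TB14 arrays. All log2 changes here are of intensity + 12.7. Across the 17475 probe sets tested, the median change in TB13 was -0.39 for deposited values, -0.030 once arrays were quantile-scaled and 0.56 once they were calibrated on the hybridization controls. In TB14 these medians were 0.0084, 0.0053 and -0.025. Each log2 change of a member in TB13 is therefore given on the deposited scale and on the quantile scale. Intensities, with their means and sums, are deposited values and carry the difference in scale. The 3' to 5' ratio of beta-actin, a sign of RNA integrity, was 1.04 to 1.06 for Trib1, 1.11 to 1.12 for TB13 and 1.01 to 1.03 for TB14, and its part in the results was not tested. All 15 myeloid markers exceeded their array's median on every array, with summed intensities of 21861 to 21964, 16093 to 16505 and 22089 to 22379.5 for Trib1, TB13 and TB14. Single myeloid markers moved in opposite directions, so similar sums need not mean a similar myeloid state. From Trib1 to TB14 the mean of Mpo rose from 226 to 2296, of Elane from 55.6 to 436 and of Lyz2 from 407 to 1118. Those of Tyrobp, Fcgr3 and Itgam fell, from 4785, 1526 and 260 to 2745, 841 and 154. Of the markers of other cells, 2 of 5 for T cells, 1 of 4 for B cells, 2 of 4 for erythroid cells and 2 of 7 for stromal and endothelial cells exceeded the median on every array. Their summed intensities, again for Trib1, TB13 and TB14, were 192 to 201, 216 to 254 and 128 to 133 for T cells and 90.5 to 94.4, 123 to 139 and 86.4 to 93.9 for B cells. For erythroid cells they were 937 to 986, 1631 to 1761 and 1549.9 to 1582, mostly from the globin gene Hba-a1, with Klf1 below the median on all arrays. For stromal and endothelial cells they were 157 to 175, 162 to 172 and 156 to 162. In the T cell sum Cd3g had means of 69.0, 14.6 and 13.9 and Cd3e of 65.9, 153 and 62.8, in the same order of lines. The part of such cells in the results was not tested, and in bulk RNA fewer cells of a type and less RNA per cell cannot be told apart.

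Of the 16 probe sets 14, at least 1 for every member gene, exceeded their array's median on all 12 arrays and were tested. All counts of members called are counts of these 14 probe sets, so a gene with several tested sets counts more than once. The other 2, both of Socs2, read 8.93 to 18.6 and lay below the median of every array. In TB14 against Trib1, 7 of the 14 rose and 6 fell (limma, Benjamini-Hochberg adjusted p under 0.05). Of all probe sets 49.5% passed, 29.6% higher and 20% lower, so a call alone sets a member apart little. A change of at least 2-fold passed for 1 riser, a probe set of Stat5a, and for 3 that fell, those of Pim2, Pim3 and Socs3. Among all probe sets 2.5% changed that much, 0.996% upwards and 1.51% downwards. The median change of the members was 0.081. On the quantile scale 7 rose and 5 fell, where 25.1% and 19% of all (44% in total) did, and 3 changed at least 2-fold, where 2.17% of all did.

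In TB13 the split of the members turned with the scale. On the deposited scale 3 were higher and 10 lower by limma, where 26% and 64.4% of all probe sets were, 90.4% in total. On the quantile scale 8 were higher and 4 lower, where 37% and 43.1% of all were, 80% in total. The median change of the members was -0.50 and 0.16 on these scales. At least 2-fold were 3 members against 16% of all, and 2 against 9.06% on the quantile scale. For the mean of both Bcl11a lines 12 members passed, where 81% of all did, and 12 on the quantile scale, where 68.1% did. Of these, 3 and 2 reached 2-fold, against 2.88% and 1.92% of all.

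Read line by line, 5 members were lower in both lines and 1 was higher in both on the deposited scale, where 17.3% and 3.19% of all probe sets were. On the quantile scale the counts were 3 and 5, against 13.1% and 8.67%. At least 2-fold lower in both were 3 members, Pim2, Pim3 and Socs3, and 1, Socs3, on the quantile scale, against 1.3% and 0.876% of all. Both lines were set against the same 4 Trib1 arrays, so their changes are not independent.

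**Figure D1:**
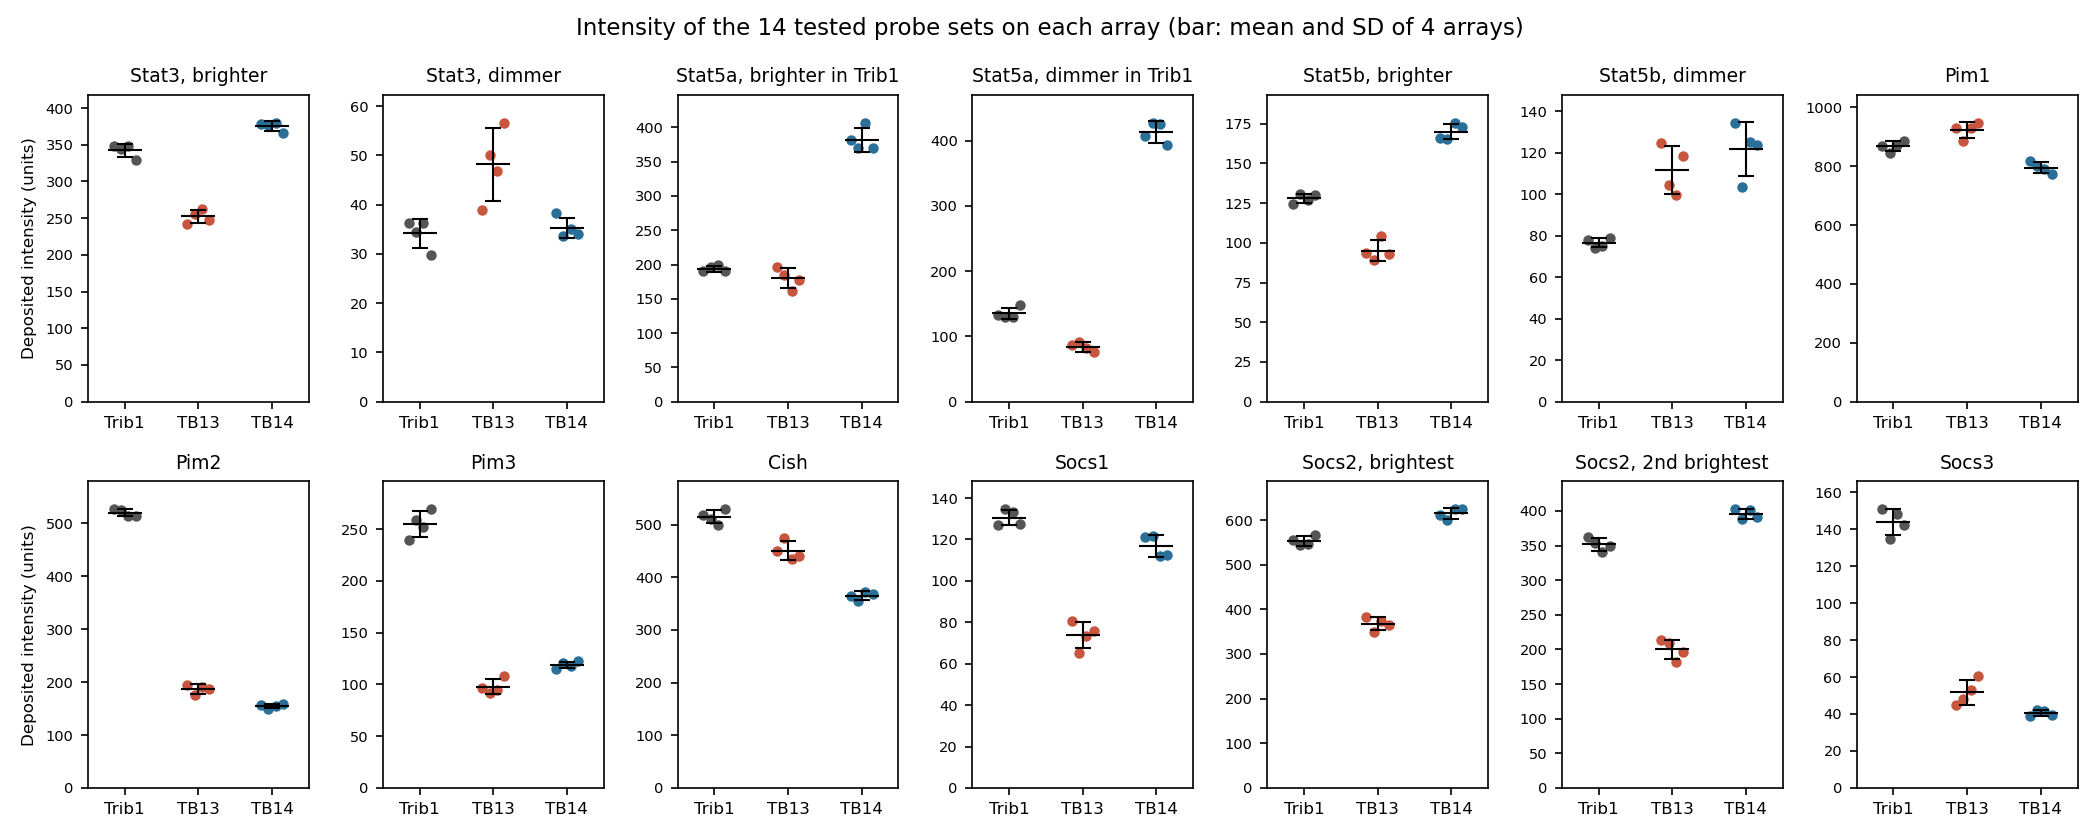
Deposited intensity (y axis, linear, from 0) of the 14 tested member probe sets in the Trib1, TB13 and TB14 lines, with 1 point for each of 4 arrays and the mean and SD of each line. Pim2, Pim3 and Socs3 read higher on every Trib1 array than on any TB13 or TB14 array, and both Stat5a probe sets read highest on the 4 TB14 arrays.

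Among the transcription factors Stat5a, which mediates interleukin-3 signals, rose in TB14. Its probe set 1421469_PM_a_at read 190.4, 196, 199 and 190.5 on the Trib1 arrays, 196, 185, 162 and 178 on those of TB13 and 381, 369.7, 407 and 369 on those of TB14. All TB14 arrays lay above the other 8, and the Trib1 and TB13 arrays overlapped. The log2 change in TB14 was 0.93 ± 0.050 (SE, n = 4 arrays a line; limma adjusted p = 6.75e-12), or 0.90 on the quantile scale. Its other probe set, 1450259_PM_a_at, read 133, 130.1, 130.0 and 147 on the Trib1 arrays, 86.3, 92.1, 81.8 and 75.4 on those of TB13 and 407, 427, 425 and 393 on those of TB14. Here the lines were fully separated, TB13 lowest and TB14 highest. The change in TB14 was 1.53 ± 0.056 (SE; limma adjusted p = 1.61e-14), or 1.45 on the quantile scale. Both rises in TB14 were called under all 5 scalings tried, namely deposited values and quantile, median, cyclic loess and control-based scaling.

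In TB13 the direction of Stat5a was not settled. The change of 1421469_PM_a_at was -0.10 for deposited values (limma adjusted p = 0.0588) and 0.65 on the quantile scale (limma adjusted p = 4.43e-09). Without TB13 replicate 1 or 2 the first of these passed, at an adjusted p of 0.01 or 0.0453. For 1450259_PM_a_at the changes were -0.62 and -0.062 (limma adjusted p = 2.9e-09 and 0.365). The log2 changes of the Stat5a pair differed by 0.59 in TB14 and 0.51 in TB13 for deposited values, and by 0.55 and 0.71 on the quantile scale.

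Stat5b, a close paralogue that lies beside Stat5a, rose less in TB14. Its brighter probe set in the Trib1 line, 1422103_PM_a_at, had a mean of 128 ± 3.01 for Trib1 (SD, n = 4), 95.0 ± 6.69 for TB13 and 170.0 ± 4.88 for TB14. The dimmer one, 1422102_PM_a_at, had means of 76.7 ± 2.27, 112 ± 11.7 and 122 ± 13.0. On both, the 4 TB14 arrays lay above the 4 Trib1 arrays. The changes in TB14 were 0.38 ± 0.050 and 0.59 ± 0.072 (SE; limma adjusted p = 2.95e-06 and 1.02e-06), called under all 5 scalings. The dimmer set was also higher in TB13 under all 5, by 0.47 for deposited and 1.07 for quantile-scaled values (limma adjusted p = 4.05e-06 and 3.54e-09). The brighter set turned there, from -0.39 to 0.21 (limma adjusted p = 4.89e-07 and 0.00209). How far these probe sets also detect Stat5a was not tested, and the values of both paralogues are uncertain to that extent.

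Stat3, which relays G-CSF and interleukin-6, changed little in TB14. Its brighter probe set, 1460700_PM_at, read 348, 345, 348 and 329 on the Trib1 arrays, 243, 256, 263 and 248 on those of TB13 and 379, 377, 379.8 and 365 on those of TB14. On this scale TB13 lay lowest and TB14 highest, with no overlap. The change in TB14 was 0.13 ± 0.036 (SE; limma adjusted p = 0.00632) and was not called under cyclic loess scaling. In TB13 it was -0.42 for deposited but 0.33 for quantile-scaled values. The dimmer probe set, 1424272_PM_at, had means of 34.2 ± 3.00 for Trib1, 48.2 ± 7.32 for TB13 and 35.3 ± 2.07 for TB14 (SD, n = 4). It was higher in TB13 under all 5 scalings, by 0.37 for deposited and 0.40 for quantile-scaled values (limma adjusted p = 9.33e-05 and 0.00145). In TB14 its change of 0.034 did not pass (limma adjusted p = 0.742).

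Among the kinases Pim2, which promotes survival and protein synthesis, fell in both lines. Its probe set 1417216_PM_at read 527, 526, 515 and 514 on the Trib1 arrays, 195, 175, 191 and 188 on those of TB13 and 157, 149, 155 and 158 on those of TB14. Every array of a Bcl11a line lay below every Trib1 array, and TB14 lay below TB13. The log2 change in TB14, the largest of any member there, was -1.67 ± 0.040 (SE; limma adjusted p = 2.29e-17). In TB13 it was -1.42 for deposited and -0.66 for quantile-scaled values (limma adjusted p = 1.14e-16 and 1.1e-10). For the mean of both lines it was -1.54 ± 0.035 and -1.17 ± 0.032 on these scales (SE; limma adjusted p = 6.39e-18 and 2.14e-14).

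Pim3, the third member of this kinase family, also fell in both. Its probe set 1451069_PM_at read 239.8, 258, 252 and 269 on the Trib1 arrays, 96.6, 91.7, 94.5 and 108 on those of TB13 and 115, 120.3, 118 and 122 on those of TB14. All Trib1 arrays lay above the other 8, and on the deposited scale TB13 lay below TB14. In TB14 the change was -1.02 ± 0.052 (SE; limma adjusted p = 2.83e-12). In TB13 it was -1.28 for deposited and -0.60 for quantile-scaled values (limma adjusted p = 1.69e-14 and 1.54e-07). For the mean of both lines it was -1.15 ± 0.045 and -0.80 ± 0.053 (SE; limma adjusted p = 2.77e-14 and 1.5e-09). Pim2 and Pim3 were called lower in both lines under all 5 scalings. Their smallest changes in TB13, -0.49 and -0.21, came with calibration on the hybridization controls, where the median of all probe sets was 0.56.

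Pim1, the founding gene of the family and a standard STAT5 target, did not share a fall of this size in either line. Its probe set 1423006_PM_at read 867, 844, 873 and 885 on the Trib1 arrays, 928, 885, 930.1 and 947 on those of TB13 and 817, 799, 792 and 772 on those of TB14. TB14 lay below both other lines, and the lowest TB13 array fell inside the Trib1 range. The change in TB14 was -0.12 ± 0.027 (SE; limma adjusted p = 0.000706), small beside those of Pim2 and Pim3, and not called under control-based scaling. In TB13 it was 0.088 for deposited and 0.51 for quantile-scaled values (limma adjusted p = 0.00509 and 4.11e-11), but -0.18 under median scaling.

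**Figure D2:**
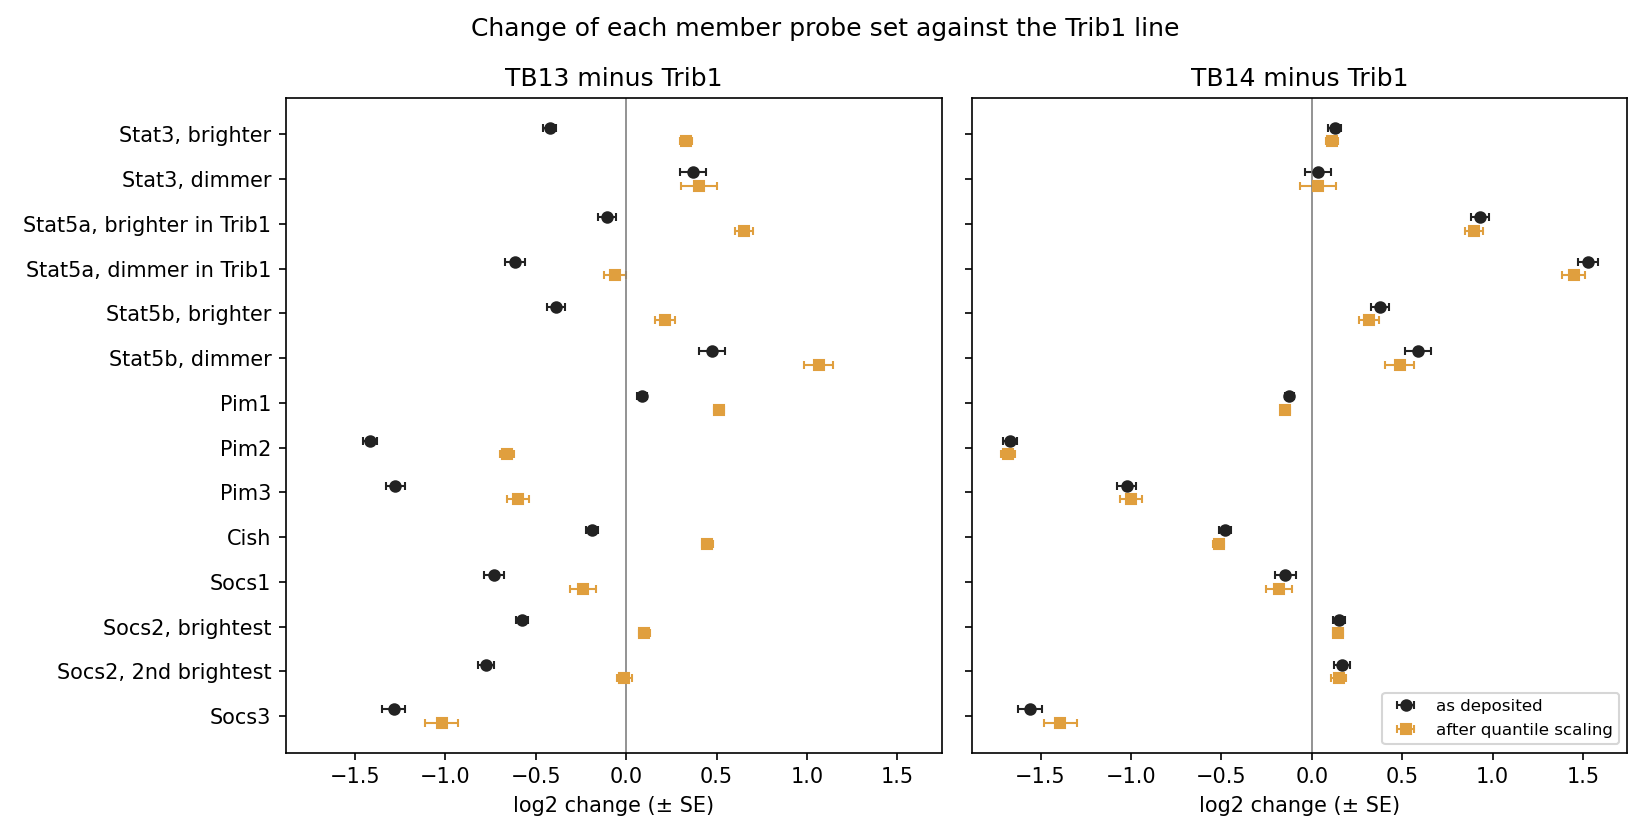
Log2 change of each tested member probe set against Trib1, with SE, in TB13 and in TB14, for deposited and for quantile-scaled values. In TB14 the scales differed little, with changes from -1.67 for Pim2 to 1.53 for a Stat5a probe set, whereas in TB13 most values moved up on the quantile scale.

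Among the inhibitors Cish, which encodes CIS and is a classical STAT5 target, fell in TB14. Its probe set 1448724_PM_at read 519, 510.0, 500.1 and 529 on the Trib1 arrays, 450.5, 475, 435 and 441 on those of TB13 and 365, 354, 373 and 368 on those of TB14. The lines did not overlap on this scale, Trib1 highest and TB14 lowest. In TB14 the change was -0.48 ± 0.034 for deposited and -0.51 ± 0.030 for quantile-scaled values (SE; limma adjusted p = 4.37e-10 and 4.48e-10), and it was called lower under all 5 scalings. In TB13 it turned from -0.19 to 0.45 (limma adjusted p = 3.76e-05 and 1.09e-09). In TB14 both genes with a STAT core in the window searched, Cish and Socs3, fell while Stat5a rose. Pim1, Pim2, Pim3 and Socs1, whose windows held no STAT core, were also called lower there for deposited values, Pim1 and Socs1 not under every scaling. Whether a STAT core played a part was not tested.

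Socs3, typically induced by STAT3 and an inhibitor of the G-CSF and interleukin-6 receptors, fell most among the inhibitors. Its probe set 1416576_PM_at read 151, 135, 148 and 142 on the Trib1 arrays, 44.9, 48.4, 53.2 and 60.4 on those of TB13 and 39.1, 42.3, 41.4 and 39.2 on those of TB14. All Trib1 arrays lay above the other 8, and TB14 lay below TB13. The change in TB14 was -1.56 ± 0.065 (SE; limma adjusted p = 1.42e-13). In TB13 it was -1.29 for deposited and -1.02 for quantile-scaled values (limma adjusted p = 4.23e-13 and 3.71e-08). For the mean of both lines it was -1.42 ± 0.057 and -1.21 ± 0.080 (SE; limma adjusted p = 3.49e-14 and 1.55e-09). Calibration on the hybridization controls ended the TB13 call, at -0.12 (limma adjusted p = 0.152), but not that of TB14, at -1.61.

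Socs1, which binds JAK kinases and restrains interferon signalling, stood close to Trib1 in TB14. Its probe set 1450446_PM_a_at read 127, 135, 133 and 128 on the Trib1 arrays, 80.6, 65.3, 73.4 and 75.8 on those of TB13 and 121, 121, 112 and 113 on those of TB14. On the deposited scale the TB14 arrays lay just below the Trib1 arrays and the TB13 arrays lowest. On the quantile scale the TB13 and TB14 arrays overlapped. In TB14 the change was -0.15 ± 0.056 (SE; limma adjusted p = 0.0373). It did not pass on the quantile scale or under median scaling (limma adjusted p = 0.0517 and 0.0733), nor without Trib1 replicate 2, 3 or 4 (limma adjusted p = 0.1, 0.0885 and 0.0504) or TB14 replicate 3 or 4 (limma adjusted p = 0.108 and 0.1). In TB13 the change was -0.73 for deposited and -0.24 for quantile-scaled values (limma adjusted p = 2.49e-10 and 0.00592), but 0.40 after calibration on the hybridization controls. Under cyclic loess scaling the TB13 change of -0.12 did not pass (limma adjusted p = 0.0583).

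Socs2, a STAT5 target that restrains growth hormone signalling, rose slightly in TB14. The brightest of its 4 probe sets, 1449109_PM_at, read 556, 544, 545 and 567 on the Trib1 arrays, 383, 349, 374 and 364 on those of TB13 and 612, 599, 624 and 624 on those of TB14. With no overlap on this scale TB13 was lowest and TB14 highest. The change in TB14 was 0.15 ± 0.032 (SE; limma adjusted p = 0.000637). The next, 1418507_PM_s_at, had means of 352 ± 9.21 for Trib1, 200.4 ± 13.9 for TB13 and 396 ± 7.09 for TB14 (SD, n = 4) and changed by 0.17 ± 0.043 in TB14 (SE; limma adjusted p = 0.00344). Both rises in TB14 were called under all 5 scalings. In TB13 the brightest turned from -0.57 to 0.10, and the next moved from -0.78 to -0.0091. Cish fell and Socs2 rose in TB14. Both are known as STAT5 targets, and whether STAT5 played a part was not tested.

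**Figure D3:**
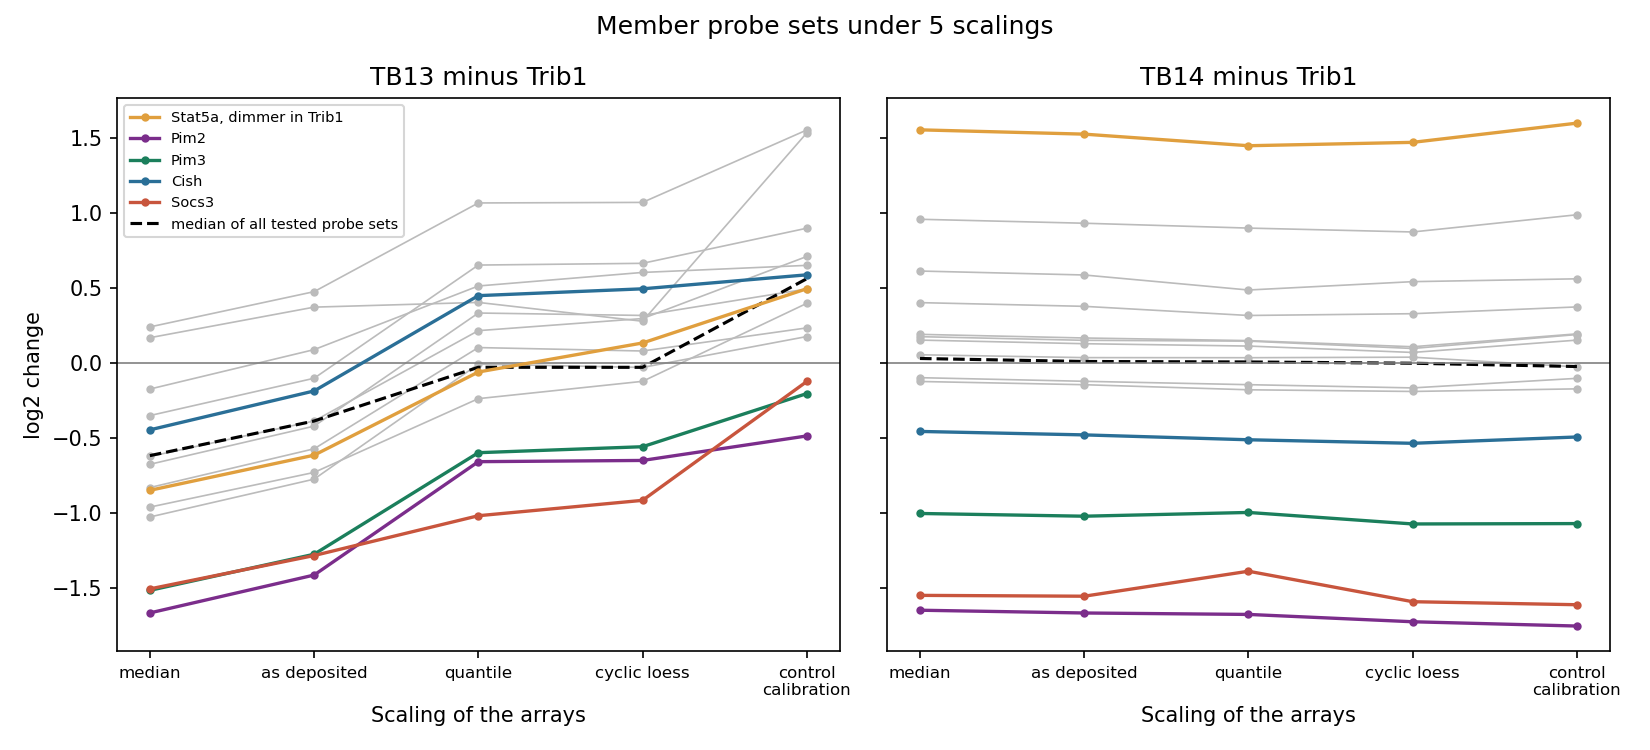
Log2 change (y axis) of the 14 tested member probe sets against Trib1 under 5 scalings of the arrays (x axis), in TB13 and in TB14, with the median of all tested probe sets as a dashed line. That median ran from -0.62 to 0.56 in TB13 and from -0.025 to 0.028 in TB14, and the member lines are nearly flat in TB14.

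Under all 5 scalings 11 of the 14 probe sets kept the same call in TB14. In TB13 4 did so, with Pim2 and Pim3 lower and the dimmer sets of Stat3 and Stat5b higher. Set directly against TB13, TB14 had 8 members higher and 5 lower by limma for deposited values, where 65.2% and 26% of all probe sets were, 91.2% in total. On the quantile scale 3 were higher and 8 lower, where 44.9% and 35.9% of all were, 80.8% in total. Median scaling gave 10 higher and 0 lower, where 12944 and 3001 of all 17475 probe sets were. Control-based scaling gave 1 higher and 10 lower, where 2371 and 12493 of all were. At least 2-fold were 2 and 2 members on the deposited and quantile scales, against 18.1% and 9.24% of all.

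Differences between the lines with the same sign on both scales were called for 8 of the 14 probe sets, beside 63.8% of all probe sets, so the count does not set the members apart. Stat5a was higher in TB14, by 1.03 for deposited and 0.25 for quantile-scaled values on 1421469_PM_a_at and by 2.14 and 1.51 on 1450259_PM_a_at. So was the second Socs2 set, by 0.94 and 0.16. Cish was lower in TB14, with differences of -0.29 and -0.96. Pim1 gave -0.21 and -0.66, Pim2 -0.25 and -1.02, Socs3 -0.27 and -0.37, and the dimmer Stat3 set -0.34 and -0.37. None of the 5 lower differences was called lower under median scaling: Pim1, then called higher, and Pim2 turned to 0.076 and 0.018, and Cish, Socs3 and the dimmer Stat3 set stood at -0.011, -0.043 and -0.11. Control-based scaling ended the calls of Stat5a 1421469_PM_a_at, at 0.090, and of the second Socs2 set, at 0.018. Of the 8, Stat5a 1450259_PM_a_at alone was called in the same direction under all 5 scalings. The Pim3 difference had no settled sign, with 0.25 and -0.40. For the dimmer Stat5b set the deposited difference of 0.11 (limma adjusted p = 0.146) passed only without TB13 replicate 1 or TB14 replicate 2 among the arrays left out singly (limma adjusted p = 0.0438 and 0.0195).

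Other genes of the pathway came from 6 lists with 57 genes on the arrays, 55 of them tested, each by its brightest tested probe set. In TB14 16 rose and 20 fell, beside 29.6% and 20% of all probe sets, with a median change of -0.034 beside 0.0084 for all probe sets, and on the quantile scale 13 rose and 21 fell. In TB13 10 were higher and 42 lower for deposited values, where 26% and 64.4% of all probe sets were. On the quantile scale 19 were higher and 26 lower, where 37% and 43.1% of all were. These shares, and those given for single lists below, are of all tested probe sets, dim ones included, and not of brightest sets. Among the 15 receptor chains 3 rose and 3 fell in TB14. Il3ra, the alpha chain of the interleukin-3 receptor, was the sole listed gene whose brightest probe set had a called change of at least 2-fold on both scales, in TB13. Its means were 119 ± 3.86 for Trib1, 42.0 ± 2.89 for TB13 and 57.0 ± 0.903 for TB14 (SD, n = 4). The changes were -0.92 ± 0.051 in TB14 (SE; limma adjusted p = 1.03e-11) and, in TB13, -1.27 for deposited and -1.16 for quantile-scaled values (limma adjusted p = 1.34e-14 and 6.36e-11).

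The beta chain gene Csf2rb, shared with other receptors, had means of 2209 ± 51.9, 1594 ± 39.7 and 2217 ± 27.3 in that order. Its change in TB14 was 0.0053 (limma adjusted p = 0.864), and in TB13 -0.47 and -0.27 on the 2 scales. Of its dimmer probe sets, 1450200_PM_s_at rose in TB14 by 0.42 (limma adjusted p = 1.02e-06) and the other did not pass (limma adjusted p = 0.106). In TB13 1450200_PM_s_at turned from -0.65 for deposited to 0.12 for quantile-scaled values (limma adjusted p = 4.52e-10 and 0.0443). The other gave -0.85 and -0.29 there. Csf2rb2, the beta chain specific to interleukin-3 in the mouse, changed by -0.065 in TB14 (limma adjusted p = 0.103), or -0.078 on the quantile scale (limma adjusted p = 0.0165). These chains are near-identical paralogues, so their probe sets may share signal.

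Of 4 JAK kinases 1 rose and 2 fell in TB14, beside 29.6% higher and 20% lower among all probe sets. Jak2, which serves the interleukin-3 receptor, had means of 1144 ± 28.7 for Trib1, 758 ± 16.2 for TB13 and 808 ± 8.40 for TB14 (SD, n = 4). It changed by -0.49 in TB14, and in TB13 by -0.59 for deposited and -0.15 for quantile-scaled values. Its dimmer probe set gave -0.41 in TB14 but -1.45 and -0.69 in TB13, so the Jak2 sets disagree in size there. The riser, Jak3, changed by 0.17 (limma adjusted p = 0.0361) and did not pass on the quantile scale (limma adjusted p = 0.293). Of 3 other STAT factors 2 rose in TB14, Stat6 by 0.48 and Stat2 by 0.39, while the dimmer Stat2 set gave 0.051 (limma adjusted p = 0.375).

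Of 15 other inhibitors 4 rose and 5 fell in TB14, where 29.6% of all probe sets were higher and 20% lower. The phosphatase genes Ptpn1, at -0.54, and Ptprc, which encodes CD45, at -0.48, changed most there. In TB13 Ptpn1 gave -1.32 for deposited and -0.59 for quantile-scaled values, and Ptprc -0.39 and -0.16. The dimmer Ptpn1 set gave -0.40 in TB14. In TB13 it gave -0.87 and -0.13, of which the second did not pass (limma adjusted p = 0.187). Of 4 partners that join the SOCS box to a ubiquitin ligase 2 rose and 1 fell in TB14, with Elob at 0.26 and Eloc at 0.14. None of the 3 dimmer Eloc probe sets passed in TB14, but all were called lower in TB13 on both scales, at -1.57, -1.18 and -0.99 for deposited and -1.58, -0.80 and -0.38 for quantile-scaled values. The brightest Eloc set gave -0.44 and -0.039 there, of which the second did not pass (limma adjusted p = 0.076), so the Eloc probe sets disagree in size.

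Of 14 other reported targets of STAT3 and STAT5 4 rose and 9 fell in TB14, beside 29.6% higher and 20% lower among all probe sets, with a median of -0.21. The alpha chain gene of the interleukin-2 receptor, Il2ra, a STAT5 target, had means of 50.3 ± 2.48 for Trib1, 24.5 ± 1.93 for TB13 and 19.8 ± 0.592 for TB14 (SD, n = 4). It changed by -0.96 ± 0.048 in TB14 (SE; limma adjusted p = 2.43e-12), from a low level. Its TB13 and TB14 means lay below the medians of their arrays, 25.5 to 25.9 and 20.8 to 21.1. Il2ra could thus enter the test through the Trib1 arrays alone, so its call is not independent of the filter. Cebpd, a transcription factor gene induced by STAT3, had means of 63.3 ± 5.18, 50.2 ± 10.4 and 155 ± 9.83. Its change in TB14 was 1.14 ± 0.093 (SE; limma adjusted p = 3.81e-09), or 0.99 on the quantile scale. In TB13 it was -0.29 for deposited and -0.14 for quantile-scaled values, and the second did not pass (limma adjusted p = 0.333). Cebpd rose and Socs3 fell in TB14. Both are known as STAT3 targets, and whether STAT3 played a part was not tested.

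**Figure D4:**
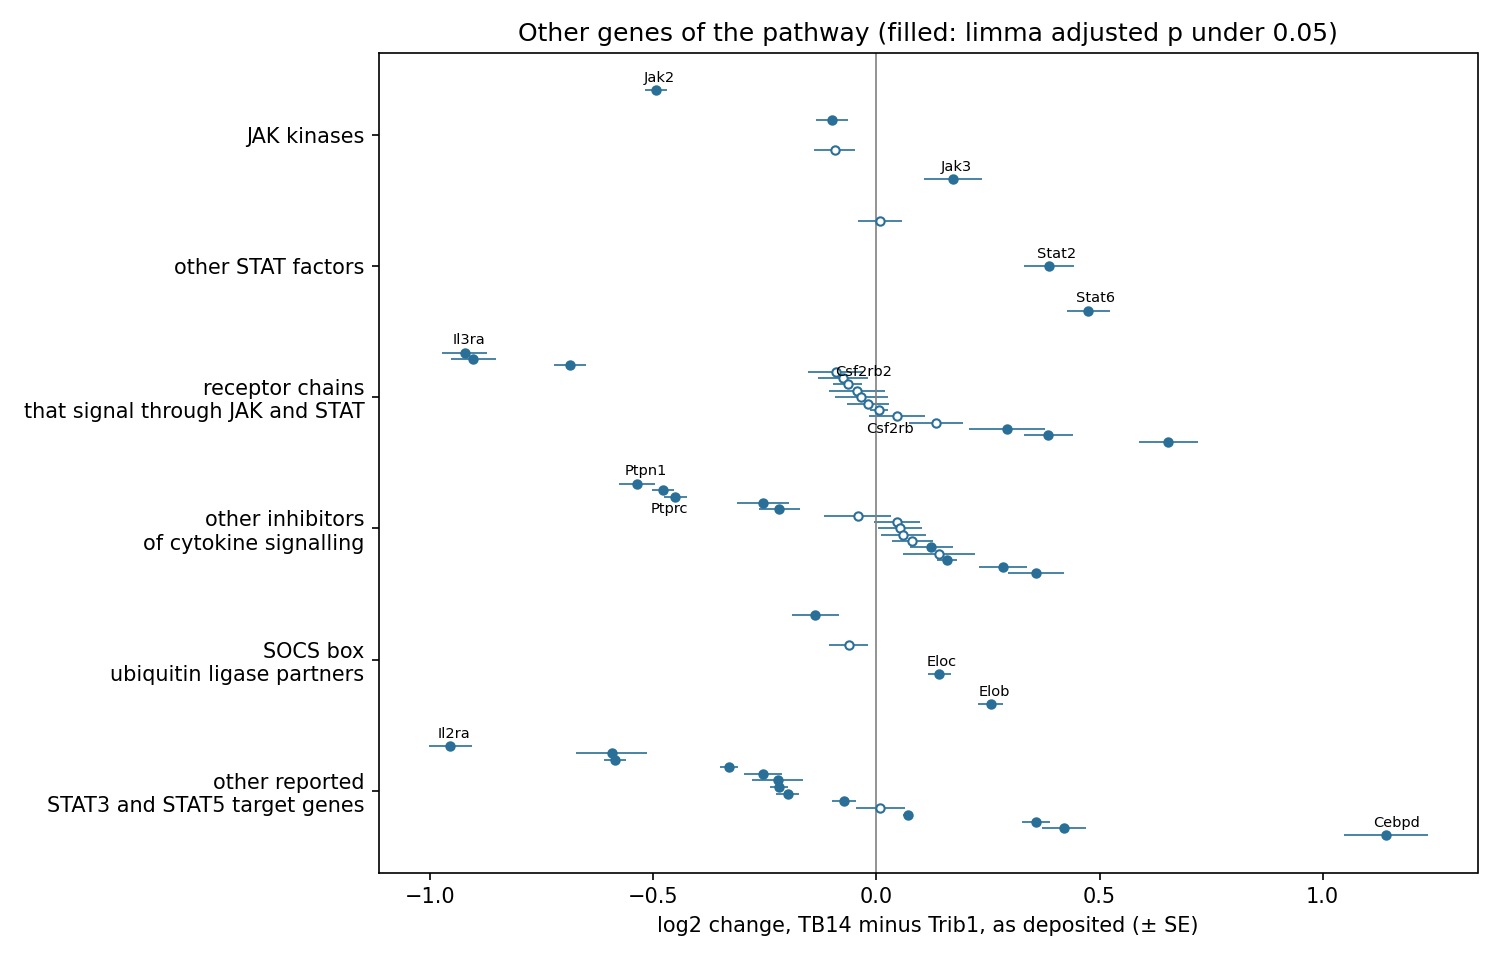
Log2 change in TB14 against Trib1 for deposited values of the 55 other pathway genes, by list. Cebpd, at 1.14, and Il2ra, at -0.96, lie at the ends.

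Likeness of pattern was described for Pim2, Socs3 and Pim3, the member genes whose line means, each taken from the gene's brightest tested probe set, spanned the widest range on the quantile scale, at 1.68, 1.39 and 1.00 (log2). The dimmer sets 1450259_PM_a_at of Stat5a, with 1.51 between its highest and lowest line, and 1422102_PM_a_at of Stat5b, with 1.07, were not ranked. The measure was the root mean square difference of log2 values, each centred on the gene's mean over the 12 arrays, against 11222 other genes. The 12 arrays come from 3 lines and are not 12 independent points. Nearest to Pim2 were Gimap1 at 0.0701, Itgax at 0.102 and Lratd2 at 0.105. Nearest to Socs3 were Bmp2k at 0.125, Gimap9 at 0.131 and F10 at 0.148. Nearest to Pim3 were Tulp4 at 0.0781, Ica1 at 0.0821 and Stk19 at 0.0899.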

How the data were processed

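Biotin-labelled cRNA was prepared from 100 ng of total RNA per array, per the labels. The deposited values are linear intensities that the authors obtained from MAS5, according to the submitters' processing notes, without a version. Its scaling target and filters were not given in the sources used here. Of 45141 probe sets the platform annotation gave 28898 a single gene, 551 several and 15588 none, besides 104 controls. Single-gene probe sets that exceeded the median of the array on 4 or more of 12 arrays were tested, 17475 in all. Deposited intensities were taken to log2(intensity + 12.7), 12.7 being the 25th percentile of all values, which understates changes of dim genes. One limma model (R 4.3.3, limma 3.58.1) held all 3 lines, with a variance trend, Benjamini-Hochberg adjustment over all tested probe sets, and calls at an adjusted p under 0.05. Control-based scaling fitted a quadratic curve to the 18 hybridization controls.

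The text names every member. From each other list it names the genes called with at least 2-fold change in 1 direction on both scales in a line, otherwise the 2 that changed most in TB14, besides Il3ra, Csf2rb, Csf2rb2 and Jak2. Hba-a1, Klf1 and the other cell type markers named singly were named after their values were seen. The members and lists were chosen with earlier results of these data known. Alternatives were other scalings, filters, pseudocounts and variance models, a replicate block, a 2-fold threshold and leaving out each array. Quantile scaling with that threshold, and leaving out all TB13 arrays, were added after seeing the data. The number of arrays limits the precision. Tested on simulated data for TB14 against Trib1 with 17475 probe sets, limma recovered 68% of 50 changes of 1.2-fold, 98% of 50 of 1.5-fold and 100% of 50 of each of 2-fold and 4-fold, and called 11 unchanged probe sets. Figures used matplotlib 3.10.9.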

Additional observations from a re-analysis of the deposited data

Results flagged for a closer look

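For 8 of the 14 tested probe sets the change against Trib1 differed between the Bcl11a lines, by the direct limma test of TB14 minus TB13, in the same direction for deposited and quantile-scaled values, beside 63.8% of all probe sets. Median scaling left 0 members lower in TB14, where 3001 of all 17475 probe sets were lower. Of the 8, only Stat5a 1450259_PM_a_at was called alike under all 5 scalings. The deposited differences on the log2 scale were 1.03 and 2.14 for the Stat5a pair and 0.94 for the second Socs2 set. They were -0.21 for Pim1, -0.25 for Pim2, -0.29 for Cish, -0.27 for Socs3 and -0.34 for the dimmer Stat3 set. Of 48 sets of 4 arrays (16 probe sets in 3 lines) 1 held an array far from the rest. The untested Socs2 set 1438470_PM_at read 13.6 on TB14 replicate 4, with the nearest TB14 array at 14.7. Chance flags about 1 set in 20.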

How the results depend on the processing

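The number of called members (13, 13, 12 and 13 for TB13, TB14 and both lines against Trib1 and for TB14 against TB13) stayed within 1.5 times the reported one under every alternative but the 2-fold threshold, although the split into higher and lower did not. For deposited values 90.4%, 49.5%, 81% and 91.2% of all probe sets were called in these contrasts, so a steady count says little about members. The 2-fold threshold left 3, 4, 3 and 2 for deposited values, beside 16%, 2.5%, 2.88% and 18.1% of all. On the quantile scale it left 2, 3, 2 and 2, beside 9.06%, 2.17%, 1.92% and 9.24%, since fewer changes are that large. Leaving out each array gave 13 to 14, 12 to 13, 12 to 12 and 13 to 14. The replicate block gave 13, 12, 12 and 13 and, among 45 member values, ended only the Socs1 call in TB14 (limma adjusted p = 0.054), as did testing without a filter (limma adjusted p = 0.0531). Arrays with the same number share only the number: their deviations correlated from -0.095 to 0.13, over 0.1 in 1 of 12 pairs, and 5 of 12 arrays correlated best with their own number. Leaving out all TB13 arrays gave 13 calls in TB14. The other pseudocounts, the filter on all 12 arrays and the variance models changed no call among the 45.

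Signs turned mostly in TB13, and the cause was not tested. For the brighter Stat3, Stat5a 1421469_PM_a_at, the brighter Stat5b, Cish, the brightest Socs2, Elob and Csf2rb2, TB13 gave 0.33, 0.65, 0.21, 0.45, 0.10, 0.069 and 0.20 on the quantile scale, 0.32, 0.66, 0.29, 0.49, 0.078, 0.12 and 0.30 under cyclic loess and 0.49, 0.90, 0.71, 0.59, 0.23, 0.19 and 0.33 under control-based scaling. Cyclic loess also gave 0.13 for Stat5a 1450259_PM_a_at, 0.13 for Stat6, 0.010 for the brightest Eloc and 0.18 for Cebpd. Control-based scaling also gave 0.49 for Stat5a 1450259_PM_a_at, 0.40 for Socs1, 0.17 for the second Socs2, 0.86 for Stat6, 1.12 for Stat2, 0.096 for the brightest Eloc, 0.88 for Cebpd and 0.44 for Il2ra. Median scaling gave -0.18 for Pim1 and -0.21 for Jak3. Values not called for deposited data turned as well. Csf2rb in TB14 gave -0.00027 on the quantile scale, -0.020 under cyclic loess and, with 1 array left out, -0.011 to 0.015. The dimmer Stat3 in TB14 gave -0.028 under control-based scaling and -0.011 to 0.056 with 1 array left out, and Jak3 in TB13 gave -0.041 to 0.055. In TB14 against TB13, for the brighter Stat3, the dimmer Stat5b and Pim3, the values were -0.22, -0.58 and -0.40 on the quantile scale, -0.25, -0.53 and -0.52 under cyclic loess and -0.34, -0.99 and -0.87 under control-based scaling. Socs1 gave -0.067 under cyclic loess and -0.57 under control-based scaling, which also gave -0.34 for the brighter Stat5b and -0.044 for the brightest Socs2. Median scaling gave 0.076 for Pim1 and 0.018 for Pim2.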
